A study of Homo sapiens with 30 samples.

Results

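The 12 libraries described here were made from 2 human colorectal cancer lines, HCT116 and SW480, after depletion of TIP60 with siTIP60-2 or with siTIP60-11. They were chosen by their labels as every library of either siRNA, 3 libraries per siRNA and line, out of 30 libraries in the series. The cells had received 10 nM of siRNA with a lipid reagent and were harvested after 48 h, HCT116 in McCoy's 5A medium and SW480 in Leibovitz's L-15 medium. The other 18 libraries, 3 per group, came from the same lines with a control siRNA or with siBRD8-6 or siBRD8-36 against BRD8, a partner of TIP60. All groups were transfected, so no group shows untreated cells, and each line is a single cell population of tumour origin. The question was which genes differed between the siRNAs against the same target, and which of these differences recurred in both lines and so followed the siRNA rather than the line.

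A small interfering RNA (siRNA) is a short duplex that loads an Argonaute protein with a guide strand and leads it to mRNAs that match the guide, which are cut. Guides also act like microRNAs: an mRNA whose 3' untranslated region (3' UTR) pairs only with the seed, the bases near the guide's 5' end, can be lowered too, and so different siRNAs against the same gene are commonly compared. TIP60, the product of KAT5, is a lysine acetyltransferase that acetylates histones and other proteins in transcription and DNA repair.

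The 3' UTR sequence that went with each siRNA is shown first, because the results below return to it. Each 7-base word was scored over 11869 protein-coding genes by the log2 difference (siTIP60-2 minus siTIP60-11) of genes whose 3' UTR held the word against genes without it, at equal UTR length and GC content. Of 16235 words that at least 50 genes held, AAGAGTT ranked first in both lines for genes lower with siTIP60-2, and ATGGAAT ranked first in both lines for genes lower with siTIP60-11. Both words also stand in the coding part of the KAT5 mRNA, in the sense orientation and in 5 of its 6 annotated coding transcripts. For comparison, 12.3% of the ranked words stand somewhere in the 2296-base KAT5 mRNA used here, UTRs included. The lines below give the 30 bases around each word, with the word in capitals, in KAT5 and in the 3' UTRs of genes that held it and were among those that differed most in both lines. The sequences were read from the GENCODE release 29 transcripts (GRCh38).
KAT5 with the first word: ggacgtaagaacAAGAGTTattcccagaac
ITGB1: gtgtgccattttAAGAGTTacttaatgttt
MARVELD2: tgatagactgtaAAGAGTTagattcctgtt
DUSP3: ttgccagaatatAAGAGTTttgttttaaat
C1orf198: ttgttgtttaaaAAGAGTTgcatgtttaaa
KAT5 with the second word: aggacagctctgATGGAATaccgtcagcac
DLD: ggtttggacaaaATGGAATactcttatatc
FAM3C: tatgaaaatatcATGGAATaatagggattt
GSTCD: gccatgttctttATGGAATactacaatgtg

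In KAT5 the first word starts at base 1261 of a 2296-base mRNA and crosses the junction of exons 8 and 9 of 13, from 65714908 to 65716670 on the plus strand of chromosome 11. The second word lies in exon 7, at chr11:65714514-65714520. In the 3' UTRs, the stretches of the first word were chr10:32900920-32900949 (ITGB1, minus strand), chr5:69444041-69444070 (MARVELD2, plus), chr17:43768305-43768334 (DUSP3, minus) and chr1:230839170-230839199 (C1orf198, minus). Those of the second word were chr7:107919394-107919423 (DLD, plus), chr7:121350094-121350123 (FAM3C, minus) and chr4:105846956-105846985 (GSTCD, plus). A shared word is a description of these sequences and does not show where either siRNA bound.

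A TIP60 library of HCT116 held 14.7 to 17.5 M expected counts and one of SW480 8.41 to 10.5 M. No replicates agreed within sampling noise (chi-square per gene of 2 to 4.55), and each was counted as a sample. The labels do not say that the replicates were separate cultures, and where they were not, the p-values rest on technical spread alone. Of 11 colon epithelial markers, 6 had enough counts to be tested in HCT116, 6 in SW480 and 5 in both lines. EPCAM, KRT8, KRT18, CDH1 and CDX2 were expressed in both lines. CDX1, CDH17, LGALS4 and GPA33 lay at or below 0.278 CPM (counts per M counts) in every group's mean. Summed levels of 7 fibroblast markers ranged from 7.55 to 29.4 CPM over the control and TIP60 libraries, mostly from COL1A1, and those of 4 endothelial markers from 0.598 to 2.58 CPM. The summed leukocyte markers were at 22.9 to 23.6 CPM with siTIP60-2 and 7.93 to 9.26 CPM with siTIP60-11 in HCT116, mostly from CD68, while PTPRC, the defining leukocyte gene, had group means of at most 0.0587 CPM. In SW480 the leukocyte sums were at or below 4.57 CPM. The mitochondrially encoded genes took a larger share of counts with siTIP60-11 than with siTIP60-2, 2.94% ± 0.184 against 2.35% ± 0.191 (SD, n = 3) in HCT116 and 4.17% ± 0.145 against 2.86% ± 0.0513 in SW480.

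KAT5 (ENSG00000172977, chr11:65711996-65719604, plus strand) was low with both siRNAs in both lines, and lower with siTIP60-2. In HCT116 its level was 3.53, 3.56 and 3.61 CPM in the siTIP60-2 libraries, 4.99, 4.72 and 4.70 CPM in the siTIP60-11 libraries and 48.2, 46.7 and 50.4 CPM in the control libraries. The SW480 values were 3.80, 3.38 and 2.31 CPM with siTIP60-2, 5.10, 5.68 and 5.38 CPM with siTIP60-11 and 38.0, 41.6 and 39.0 CPM with the control siRNA. As this was bulk RNA, fewer cells with a transcript and less of it per cell cannot be told apart, here or below. The siRNA groups did not overlap in either line, and every TIP60 library was far below every control library, as the labels say. The log2 difference between the siRNAs was −0.43 in HCT116 (SE 0.106, edgeR adjusted p = 0.00789) and −0.77 in SW480 (SE 0.168, edgeR adjusted p = 0.000465). The HCT116 call was lost on TPM values (log2 difference −0.05 with limma), where the group means were 6.28 TPM with siTIP60-2 and 6.52 TPM with siTIP60-11. On the count scale the residual KAT5 moved with the siRNA in both lines, on the TPM scale it was called in SW480 alone, and its part in the differences below was not tested.

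A large share of the transcriptome differed between siRNAs of the same target. At an adjusted p under 0.05, 7316 of 15919 genes tested were called in HCT116 (46.0%), 3738 of them higher with siTIP60-2 (23.5%) and 3578 lower (22.5%). In SW480, 6925 of 15277 were called (45.3%), 3577 higher (23.4%) and 3348 lower (21.9%). Most of these differences were small: the median size among called genes was 0.46 in HCT116 and 0.47 in SW480 on the log2 scale. At 2-fold or more, 996 genes were called in HCT116 and 909 in SW480. On the TPM values with limma, the share of calls that were higher with siTIP60-2 was 72.1% in SW480 in place of 51.7%, on a scale where the median gene lay at 0.13 in place of 0.00, and 59.0% in HCT116 in place of 51.1%.

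Differences recurred between the lines, which share no library. Of 13888 genes tested in both lines, 3927 were called in both, 3505 of them in the same direction (25.2% of genes tested) and 422 in opposite directions. The recurring genes comprised 1934 higher with siTIP60-2 (13.9%) and 1571 lower (11.3%). They made up 51.7% of the HCT116 calls and 54.6% of the SW480 calls among genes tested in both. The log2 differences of the lines correlated over the 13888 genes with Pearson's r = 0.44 and Spearman's rho = 0.50, where the points share the siRNAs and the target and genes are not independent replicates. At 2-fold or more in each line, 229 genes recurred (1.65% of genes tested), 103 lower and 126 higher with siTIP60-2. With limma on TPM values, 2201 genes recurred, 71.8% of them higher with siTIP60-2 in place of 55.2%, and 134 recurred at 2-fold or more.

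**Figure D1:**
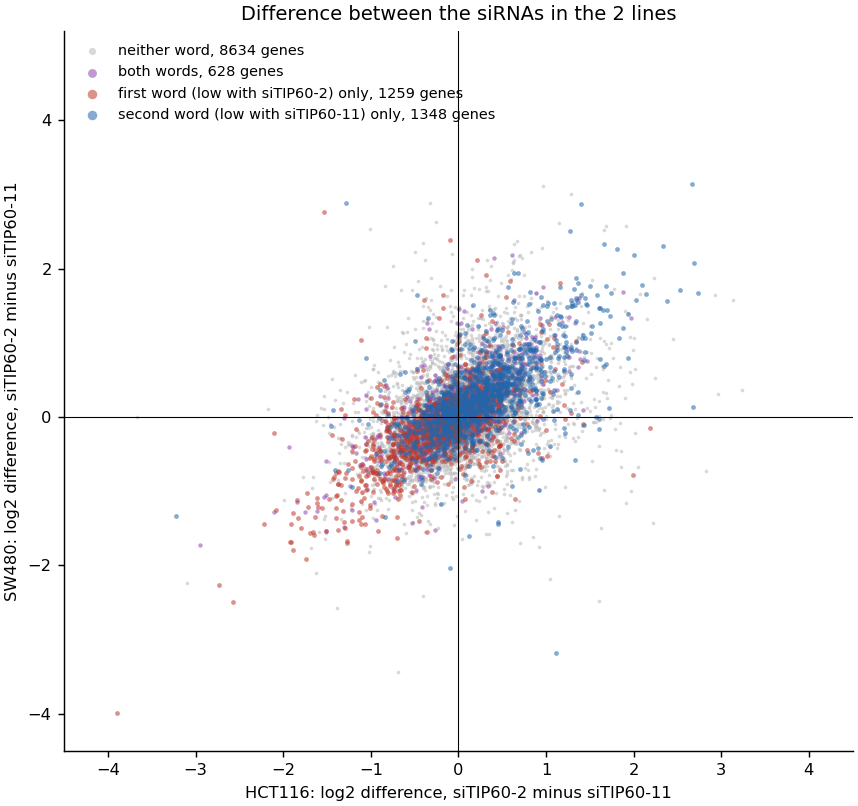
Log2 difference between the siRNAs (siTIP60-2 minus siTIP60-11) in HCT116 (x axis) and SW480 (y axis), 1 point per protein-coding gene with an annotated 3' UTR, coloured by the words its 3' UTR held (first word AAGAGTT, second word ATGGAAT). The 1259 genes with only the first word reach toward the lower left, where ITGB1 lies at −3.90 and −3.99, and the 1348 genes with only the second word toward the upper right.

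In more than 1 in 2 of the recurring genes with large differences, the siRNA with the lower level was also the one farther from control in both lines. Both siRNA groups were set against the same control libraries, so these positions are given as a description. Of the 103 genes at least 2-fold lower with siTIP60-2 in both lines, 58 had their siTIP60-2 mean below control and farther from it than the siTIP60-11 mean in both lines, while in each line the siTIP60-11 mean was the farther from control in 33. Of the 126 genes at least 2-fold higher with siTIP60-2, 96 had their siTIP60-11 mean below control and farther from it in both lines. In these 126 the siTIP60-2 mean was the farther from control in 13 in HCT116 and in 26 in SW480. The control mean often lay between the siRNA means. This held for 64 of the 103 genes in HCT116 and 67 in SW480, and for 75 and 81 of the 126. The 30 genes named by rule (15 per direction) were chosen by the smaller of the differences in the lines. Their siRNA libraries did not overlap in either line, which follows from choosing called genes with such large differences and is no further result.

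ITGB1, the beta-1 subunit shared by many integrin receptors for extracellular matrix, differed most of the 30. In HCT116 it was at 47.3, 50.6 and 47.2 CPM with siTIP60-2 and at 715, 722 and 730 CPM with siTIP60-11, against a control mean of 1082 ± 53.6 CPM (SD, n = 3). The SW480 libraries were at 30.6, 33.6 and 33.5 CPM with siTIP60-2 and at 537, 514 and 506 CPM with siTIP60-11, against 460 ± 5.10 CPM. The siTIP60-2 libraries were therefore low in both lines and the siTIP60-11 libraries on either side of control, below it in HCT116 and above it in SW480. The log2 difference was −3.90 in HCT116 (SE 0.0585, edgeR adjusted p = 5.38e-19) and −3.99 in SW480 (SE 0.0636, edgeR adjusted p = 2.24e-26). Against the control siRNA, ITGB1 fell with siTIP60-2 to 4.47% and 7.07% of the control level, a lower share than KAT5 kept with that siRNA. AC022149.1, a processed pseudogene of ITGB1 that may take some of its reads, moved alike (log2 difference −3.61 and −3.73).

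Other genes lower with siTIP60-2 included proteins of cell contacts and of signalling. MARVELD2, tricellulin of tight junctions where 3 cells meet, was at 6.12, 6.13 and 5.93 CPM with siTIP60-2 and 38.9, 40.5 and 41.7 CPM with siTIP60-11 in HCT116, around a control mean of 27.1 CPM. In SW480 MARVELD2 was at 5.41, 6.42 and 6.39 CPM against 32.2, 28.2 and 27.2 CPM, with a control mean of 23.2 CPM. DUSP3, a phosphatase that acts on MAP kinases, stood at 27.9% of control with siTIP60-2 and 103% with siTIP60-11 in HCT116, and at 28.2% and 98.2% in SW480. FZD6, a Frizzled receptor for WNT ligands, was at 34.2% and 103% of control in HCT116 and at 37.7% and 110% in SW480. BIRC2, the ubiquitin ligase cIAP1 of tumour necrosis factor signalling, was at 37.9% and 117%, and in SW480 at 26.2% and 113%. In these 4 genes siTIP60-11 left the level near or above control.

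GPD2, the mitochondrial glycerol-3-phosphate dehydrogenase, was 7.71-fold lower with siTIP60-2 in HCT116 and 3.33-fold lower in SW480, and this difference between the lines itself passed the test (edgeR adjusted p = 3.25e-08). TIMP1, a secreted inhibitor of metalloproteinases, fell with siTIP60-2 to 16.5% of control in HCT116 and 33.2% in SW480. With siTIP60-11 it was at 47.2% and 104%, so that only in HCT116 were both siRNAs below control. COIL, the scaffold of Cajal bodies, stood at 40.9% and 35.3% of control with siTIP60-2 and at 153% and 114% with siTIP60-11. C3orf52 and EPDR1 lay on both sides of control in both lines: C3orf52 was at 58% with siTIP60-2 and 220% with siTIP60-11 in HCT116, and EPDR1 at 74.4% and 218% in SW480. Further genes of the 15 (C1orf198, GDE1, a phosphodiesterase of glycerophospholipids, MTMR9, of the myotubularin family, and IQCB1, a ciliary protein) had log2 differences between −1.51 and −1.92 in the lines.

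Among genes higher with siTIP60-2, DLD differed by nearly the same amount in both lines. It encodes dihydrolipoamide dehydrogenase, the subunit shared by the pyruvate and other 2-oxoacid dehydrogenase complexes. In HCT116 it was at 165, 159 and 157 CPM with siTIP60-2, 33.7, 30 and 31.9 CPM with siTIP60-11 and 141 ± 1.44 CPM (SD, n = 3) in control cells. SW480 cells had 135, 145 and 139 CPM, 27, 28.7 and 28.8 CPM and 133 ± 2.42 CPM. The siTIP60-2 libraries were near control in both lines and the siTIP60-11 libraries low, with log2 differences of 2.33 (SE 0.0517, edgeR adjusted p = 2.14e-16) and 2.31 (SE 0.0631, edgeR adjusted p = 1.8e-20).

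FAM3C, a secreted cytokine-like protein, was at 193, 179 and 194 CPM with siTIP60-11 in HCT116, 21.9% of control, and at 141% of control with siTIP60-2. In SW480 FAM3C was at 61.0, 58.1 and 67.2 CPM with siTIP60-11, 34.5% of control, and at 146% with siTIP60-2. Its processed pseudogene FAM3C2, which may share its reads, differed by 2.21 and 1.77 on the log2 scale against 2.69 and 2.07 for FAM3C. ACBD7, of the acyl-CoA-binding family, had the largest difference in SW480 among the 30 genes after ITGB1, 8.82-fold, and was 6.36-fold higher with siTIP60-2 in HCT116. In HCT116 its siTIP60-2 mean was itself at 63.2% of control and in SW480 at 162%. G3BP1, a nucleator of stress granules, stood at 27.9% and 37.0% of control with siTIP60-11 and at 131% and 137% with siTIP60-2. GSTCD was on both sides of control in both lines, at 46.2% with siTIP60-11 and 186% with siTIP60-2 in HCT116.

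Further genes of this direction were FKBP9 (a prolyl isomerase of the endoplasmic reticulum), SWAP70 (an activator of Rac), HKDC1 (a hexokinase), PPP1R14C (an inhibitor of protein phosphatase 1), MMGT1 (a subunit of the membrane protein insertase EMC), DNAJB14 (a J-domain co-chaperone), KLHL23 and CDC26 (a subunit of the anaphase-promoting complex). Their log2 differences ran from 1.66 to 2.53 in HCT116 and from 1.67 to 2.33 in SW480. FKBP9 was below control with both siRNAs in HCT116, at 55.4% with siTIP60-2 and 15.8% with siTIP60-11, but at 108% and 22.6% in SW480, and its copy FKBP9P1, which may share reads, differed by 2.59 there. HKDC1 was at 155% with siTIP60-2 in HCT116 and at 71.7% in SW480, while siTIP60-11 lowered it in both lines, to 44.9% and 21.8%. Of the 30 genes, 9 also differed between the lines in the size of the siRNA difference, 7 of those higher with siTIP60-2 and 2 of those lower.

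**Figure D2:**
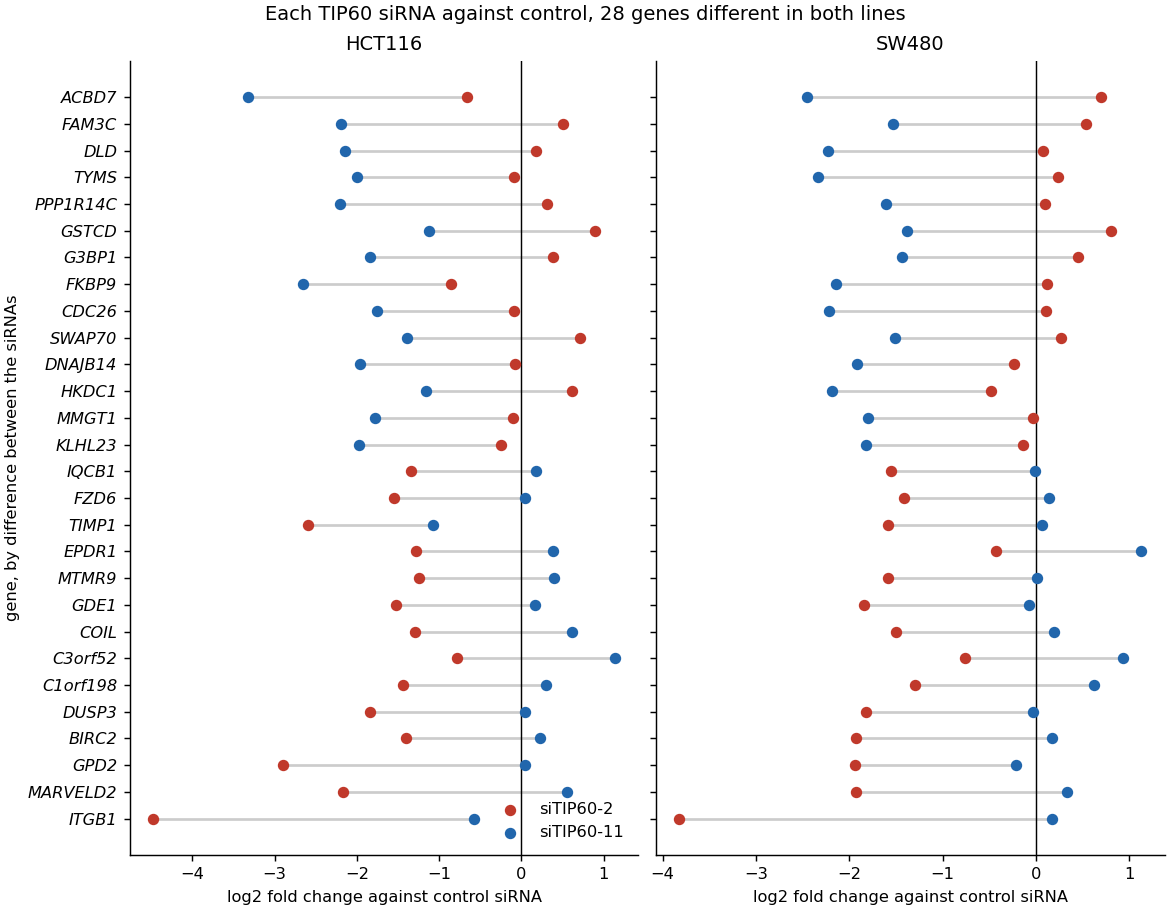
Log2 fold change of each TIP60 siRNA against the control siRNA (x axis) for 28 of the 30 genes named for differing in both lines (y axis), in HCT116 and SW480, with a grey line joining the siRNAs of a gene. In the upper 14 genes the siTIP60-11 points lie between −1.12 and −3.33 and the siTIP60-2 points between −0.85 and 0.89, and in the lower 14 the siTIP60-2 points are the low ones, down to −4.48 for ITGB1.

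TYMS, thymidylate synthase, which makes dTMP for DNA synthesis, was at 240, 243 and 239 CPM with siTIP60-2 and 64.6, 63.4 and 63.4 CPM with siTIP60-11 in HCT116, against 256 ± 14.8 CPM in control cells. In SW480 it was at 158, 166 and 172 CPM, 29, 27 and 27.7 CPM and 140 ± 5.25 CPM. Its log2 difference was 1.91 in HCT116 (edgeR adjusted p = 1.07e-14) and 2.57 in SW480 (edgeR adjusted p = 1.01e-18).

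**Figure D3:**
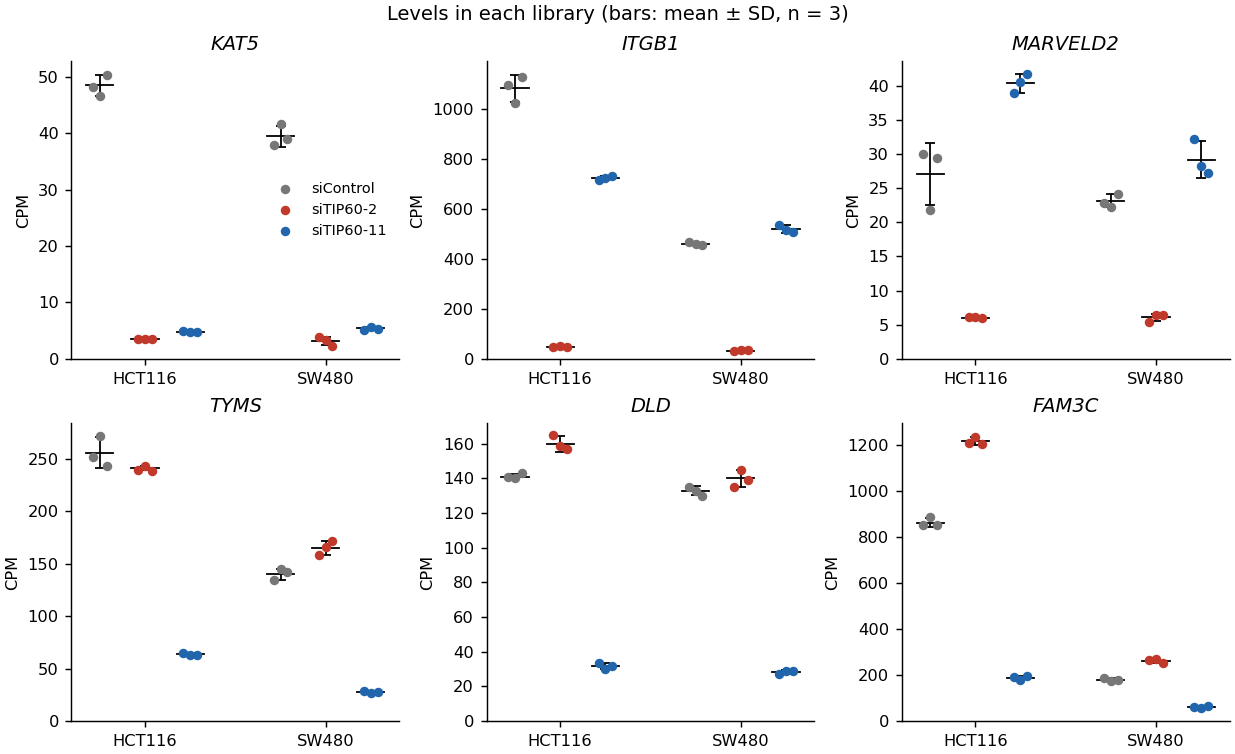
CPM (y axis, from 0) of KAT5, ITGB1, MARVELD2, TYMS, DLD and FAM3C in each library of the control siRNA, siTIP60-2 and siTIP60-11 in HCT116 and SW480, with the mean and SD of 3 libraries. KAT5 is low with both siRNAs, ITGB1 and MARVELD2 are lowest with siTIP60-2, and TYMS, DLD and FAM3C are lowest with siTIP60-11.

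The words shown first sorted genes across the whole table. In HCT116 the 1887 genes with AAGAGTT in the 3' UTR (15.9% of the 11869) had a coefficient of −0.268. That is, they were lower with siTIP60-2 by that much on average, on the log2 scale at equal UTR length and GC. In SW480 the coefficient was −0.217. The unadjusted medians with and without AAGAGTT lay closer together, at −0.109 against 0.034 in HCT116 and −0.057 against 0.044 in SW480. The 1976 genes with ATGGAAT (16.6%) had coefficients of 0.176 in HCT116 and 0.174 in SW480. Their unadjusted medians were 0.135 against −0.003 without the word in HCT116, and 0.170 against 0.003 in SW480. Words that overlap these came next (AGAGTTA and TGGAATA in both lines), and the leading 8-base words were the same words with a further A, AAGAGTTA and ATGGAATA, with larger coefficients (−0.366 and −0.328, 0.261 and 0.271). Divided by their standard errors over genes, the coefficients of AAGAGTT were −20.2 and −16.1, against −5.28 and −4.79 for the best word that shared no 5-base run with it. For ATGGAAT the values were 13.3 and 13.1, against 4.35 and 5.31. Ranking in either line alone chose the same words, and since the words were chosen for these values, the coefficients are given as a description.

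Each word followed its siRNA in every library. Taken against the mean of the control libraries, the AAGAGTT coefficient was −0.264 ± 0.0119 with siTIP60-2 and −0.001 ± 0.00497 with siTIP60-11 in HCT116 (mean ± SD, n = 3), and −0.220 ± 0.000608 and −0.007 ± 0.00538 in SW480. The ATGGAAT coefficient was −0.198 ± 0.00582 with siTIP60-11 and −0.025 ± 0.00325 with siTIP60-2 in HCT116, and −0.197 ± 0.00249 and −0.024 ± 0.00681 in SW480. The siTIP60-2 libraries were thus low mainly for the first word and the siTIP60-11 libraries for the second, with no overlap between the siRNAs in either line. The words were chosen on the contrast of these same libraries, so the lack of overlap restates that choice and is given as a description. The BRD8 siRNAs, treated the same way, gave group means between −0.042 and 0.026 for both words. For AAGAGTT, siBRD8-36 was at −0.042 ± 0.00473 in HCT116 and −0.027 ± 0.00223 in SW480, each library below every control library of its line. The AAGAGTT means of siBRD8-6 were −0.004 and −0.000. For ATGGAAT, siBRD8-36 was at 0.026 and −0.003, and siBRD8-6 at −0.004 and −0.013. In the direct contrast of siBRD8-6 and siBRD8-36 the coefficients were 0.044 and 0.030 for AAGAGTT and −0.034 and −0.009 for ATGGAAT.

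**Figure D4:**
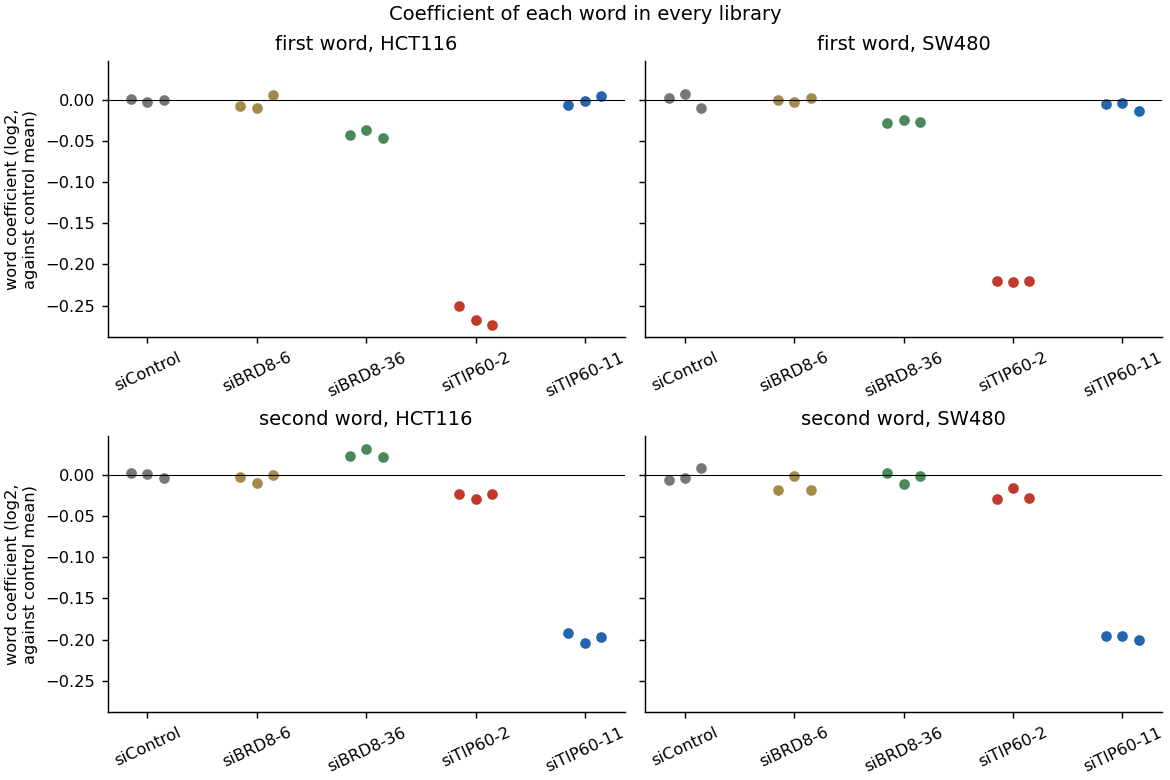
Coefficient of each word (y axis, log2, against the mean of the control libraries of the line) in every library, by siRNA (x axis), for AAGAGTT (first word, upper row) and ATGGAAT (second word, lower row). The siTIP60-2 libraries are the low ones for the first word (means −0.264 and −0.220), and the siTIP60-11 libraries for the second (−0.198 and −0.197).

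Genes with more copies of a word were more often called lower with the siRNA of that word. Shares and medians by word, here and below, were not adjusted for UTR length or GC content. Of genes with no AAGAGTT in the 3' UTR, 9.85% were lower with siTIP60-2 in both lines. With 1 copy the share was 22.4%, with 2 copies 28.1% and with 3 or more 34.8% (66 genes), while the share higher in both lines stayed between 10.6% and 16.7%. For ATGGAAT the share higher with siTIP60-2 in both lines was 13% without the word, 28.8% with 1 copy, 39% with 2 and 40.5% with 3 or more (79 genes). The medians of 3 or more copies against none were −0.33 against 0.03 in HCT116 and −0.10 against 0.04 in SW480 for AAGAGTT, and 0.22 against −0.00 and 0.30 against 0.00 for ATGGAAT. With 2 copies of ATGGAAT the HCT116 median was 0.24, so the medians did not rise with every copy.

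Genes with both words fell between. Of the 1259 genes with only AAGAGTT, 27.2% were lower and 8.42% higher with siTIP60-2 in both lines. Of the 1348 with only ATGGAAT, 6.23% were lower and 35.5% higher. Of the 628 with both words the shares were 16.6% and 20.4%, and of the 8634 with neither word 10.4% and 13.7%. Over all genes tested, which were not only protein-coding, the shares were 11.3% and 13.9%. Of the 11869 protein-coding genes classed here by word, 1429 were lower and 1898 higher in both lines. Most recurring genes did not hold the word of their lower siRNA: AAGAGTT was in 31.2% of the 1429 protein-coding genes lower with siTIP60-2 in both lines, and ATGGAAT in 32.0% of the 1898 that were higher. At 2-fold or more in each line the shares were 73.4% (58 of 79 genes) and 62.2% (74 of 119), where 15.9% and 16.6% of all genes held the words. The words were chosen on these same differences, so the shares are a description.

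**Figure D5:**
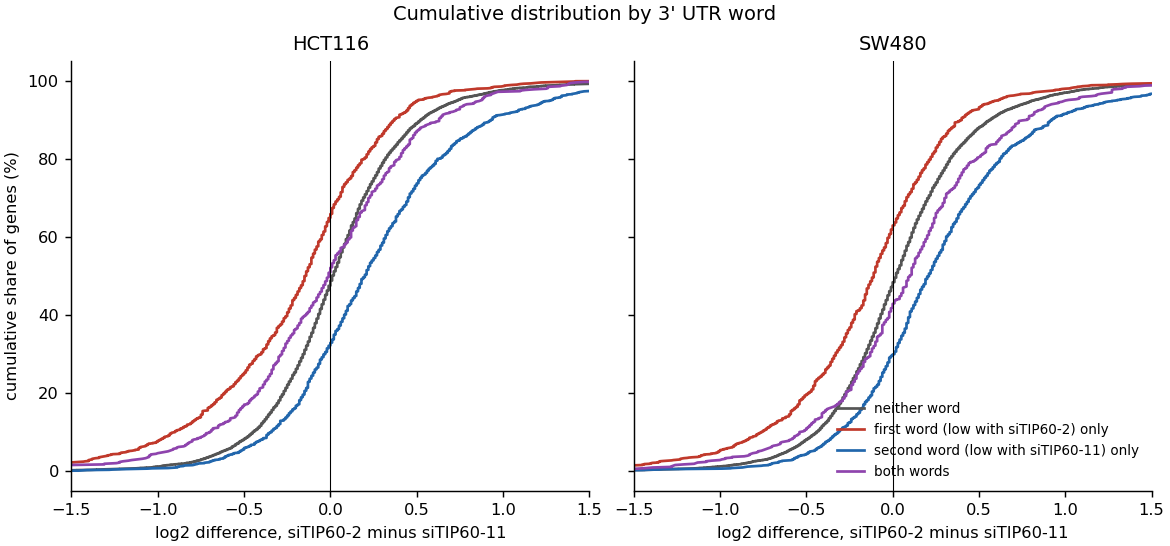
Cumulative share of genes (y axis, %) by log2 difference between the siRNAs (x axis) in HCT116 and SW480, for genes whose 3' UTR held AAGAGTT only (first word), ATGGAAT only (second word), both or neither. The curve of the first word lies to the left of the curve for neither word (medians −0.14 against 0.01 in HCT116, −0.11 against 0.02 in SW480) and that of the second word to the right (0.20 and 0.21).

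The word outside the 3' UTR, examined after the values above were seen, went with smaller differences. Genes with AAGAGTT only in the coding part (824 genes without ATGGAAT anywhere in the mRNA) had medians of −0.07 in HCT116 and 0.01 in SW480, against −0.16 and −0.14 with the word in the 3' UTR. Genes with ATGGAAT only in the coding part (791 genes without AAGAGTT) had medians of 0.12 and 0.14, against 0.22 and 0.22. Genes were also grouped by how many bases around the word their 3' UTR shared with KAT5. For AAGAGTT the medians were −0.08 and −0.04 with 7 bases, −0.11 and −0.05 with 8, −0.20 and −0.10 with 9, −0.22 and −0.18 with 10 and −0.19 and −0.17 with 11 or more (33 genes), so they were lower with each further base up to 10. For ATGGAAT they followed no such order, at 0.10 and 0.13 with 7 bases, 0.21 and 0.23 with 8, 0.12 and 0.20 with 9, 0.23 and 0.34 with 10 and 0.06 and 0.06 with 11 or more (21 genes).

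Of the 15 named genes lower with siTIP60-2, 12 held AAGAGTT in a 3' UTR of the transcripts examined (TIMP1 in the longest coding transcript only), GDE1 held it only in the coding part, BIRC2 in the 5' UTR and the coding part, and FZD6 held it in none of these. Of the 15 higher with siTIP60-2, 12 held ATGGAAT in the 3' UTR, TYMS only in the coding part, and G3BP1 and HKDC1 in neither. Some genes held the word of the other direction. Among the lower genes, GPD2 held ATGGAAT in the 3' UTR and GDE1 in the coding part. Among the higher genes, DNAJB14 held AAGAGTT in the 3' UTR, and G3BP1, FKBP9 and CDC26 held it in the coding part. Over all 11869 genes, the longest 3' UTR held AAGAGTT in 15.9% and ATGGAAT in 16.6%. These shares use the longest 3' UTR alone, a measure by which TIMP1 lacks AAGAGTT. The words and the named genes were chosen on the same differences, so high counts here follow from the choice and are a description.

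TIP60 acts in the NuA4/TIP60 complex, and the share of its subunits that recurred was near that of all genes. Of 18 subunits tested in both lines, 2 were higher and 3 lower with siTIP60-2 in both, KAT5 among the latter, beside 13.9% and 11.3% of all genes, and the list's medians were 0.02 in HCT116 and 0.01 in SW480, which changed sign with upper-quartile scaling. MBTD1, a chromatin-reading subunit, was at 57.2, 55 and 60.4 CPM with siTIP60-2 and 23.3, 24.6 and 25.6 CPM with siTIP60-11 in HCT116, against a control mean of 52.1 CPM. Its log2 difference was 1.23 in HCT116 (edgeR adjusted p = 6.47e-11) and 0.87 in SW480 (edgeR adjusted p = 1.54e-06), and its 3' UTR held ATGGAAT 2 times. ACTL6A, an actin-like subunit, was lower with siTIP60-2 by −0.54 in both lines. DMAP1 was lower by −1.22 in HCT116 and −0.25 in SW480. BRD8 itself differed by 0.03 in HCT116 (not called) and by 0.25 in SW480 (called). Among 13 other lysine acetyltransferase genes only HAT1 recurred, lower with siTIP60-2 by −0.37 and −0.22, and the SW480 call was lost on TPM values.

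Of 16 genes of small RNA silencing, 4 were higher and 2 lower with siTIP60-2 in both lines (13.9% and 11.3% of all genes), with medians of −0.03 in HCT116 (positive on TPM values) and 0.20 in SW480. TNRC6C, a partner through which Argonaute silences mRNAs, was at 68.0, 60.6 and 62.3 CPM with siTIP60-2 and 29.8, 28.3 and 30.8 CPM with siTIP60-11 in HCT116, and its log2 difference was 1.10 in both lines (edgeR adjusted p = 6.35e-08 and 1.14e-07). AGO2, the Argonaute that cuts, was higher with siTIP60-2 by 0.84 and 1.08, at 162% and 156% of control, with siTIP60-11 at 90.0% and 73.9%. The 3' UTRs of TNRC6C and AGO2 each held both words. AGO4 was higher by 0.48 and 0.59, and its SW480 call was lost on TPM values. DROSHA, which trims microRNA precursors in the nucleus, was lower by −0.66 and −0.35.

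Double-stranded RNA can raise interferon-stimulated genes, and these showed no shared direction. Of 39 genes on that list, 29 were tested in both lines, and 4 were higher (USP18, IRF1, STAT2 and EIF2AK2) and 1 lower with siTIP60-2 in both, against 13.9% and 11.3% of all genes. The USP18 call in SW480 was lost with DESeq2 and without any single SW480 library other than siTIP60-11 replicate 2. The STAT2 call in HCT116 was lost on TPM values and without siTIP60-2 replicate 1 or siTIP60-11 replicate 2. The medians were 0.15 in HCT116 and 0.10 in SW480, beside −0.01 and 0.00 over all genes. OAS1 differed by 0.92 in HCT116 (not called) and −1.75 in SW480 (called), and BST2 by 1.33 and −0.33, both called. Of 18 NF-kappaB target genes, 10 of 15 tested were higher with siTIP60-2 in HCT116 and 4 of 12 in SW480, where 2 were lower. The shares of all genes were 23.5% higher in HCT116, and 23.4% higher and 21.9% lower in SW480. TNFAIP2, NFKB2 and SOD2, the mitochondrial superoxide dismutase, were higher in both lines. TNFAIP2 differed by 1.04 and 1.09.

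DNA replication genes that recurred were mostly higher with siTIP60-2. Of 40 genes, 17 were higher and 3 lower with siTIP60-2 in both lines, against 13.9% and 11.3% of all genes, with medians of 0.12 in HCT116 and 0.37 in SW480. The higher genes included RPA1, a subunit of the single-strand binding protein RPA (0.89 and 0.84), ORC1 and ORC6 of the origin recognition complex (0.40 and 1.04, 0.56 and 0.85) and POLA2 of the primase complex (0.47 and 0.83). The lower genes included RRM2 and GINS1, a subunit of the replicative helicase. GINS1 was at 14, 12.3 and 10.8 CPM with siTIP60-2 and 54.8, 49.3 and 53 CPM with siTIP60-11 in HCT116, against a control mean of 42.7 CPM, and held AAGAGTT 2 times in its 3' UTR. Its log2 difference was −2.08 in HCT116 and −1.25 in SW480.

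Of 33 mitosis genes, 6 were higher and 2 lower in both lines, near the 13.9% and 11.3% of all genes, with medians of 0.12 and 0.29. The lower genes were CDK1, the mitotic kinase (−0.36 and −0.47, the SW480 call lost on TPM values), and ANLN, the cytokinesis scaffold anillin (−1.21 and −1.40), with AAGAGTT in its 3' UTR. Cyclin A2 (CCNA2) was higher by 0.48 and 1.11. Of 15 histone genes, 10 were tested in both lines, and 1 was higher and 4 lower with siTIP60-2, beside the same shares of all genes. Histone genes share sequence with close copies, so their values are less certain.

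Mitochondrially encoded mRNAs were lower with siTIP60-2 mainly in SW480. All 13 were called lower in SW480 (median −0.66) and 4 of 13 in HCT116 (median −0.26), so that 4 recurred. The shares of all genes called lower were 21.9% in SW480, 22.5% in HCT116 and 11.3% in both lines. MT-ND6, the subunit encoded on the light strand, was at 11.1, 8.17 and 7.83 CPM with siTIP60-2 and 16.0, 19.3 and 20.5 CPM with siTIP60-11 in HCT116, with log2 differences of −1.04 and −1.02. The HCT116 calls of MT-CO1 and MT-CO3 were lost when some single libraries were left out, without either siTIP60-2 replicate 2 or 3 or siTIP60-11 replicate 2 or 3 for both genes, and without siTIP60-2 replicate 1 for MT-CO3, which had an edgeR adjusted p of 0.049. The MT-CO1 call was also lost with the replicate block, and the MT-CO3 call with no filter and on TPM values. Of 30 ribosome biogenesis genes, 3 were higher (BOP1, RRP12 and GNL3) and 7 lower in both lines, beside 13.9% and 11.3% of all genes. NCL, nucleolin, was lower by −1.36 and −0.74.

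Some lists had mostly higher calls with siTIP60-2 in HCT116 and calls in both directions in SW480, a contrast that was not tested for the lists. Over all genes, 23.5% were higher and 22.5% lower with siTIP60-2 in HCT116, and 23.4% and 21.9% in SW480. Of 25 cholesterol genes, 18 were higher and 3 lower with siTIP60-2 in HCT116 (median 0.42), but 4 and 7 in SW480 (median −0.08, positive on TPM values). HMGCS1, the synthase that begins the mevalonate pathway, was at 383, 334 and 380 CPM with siTIP60-2 and 105, 98.8 and 101 CPM with siTIP60-11 in HCT116, against a control mean of 91.0 CPM. In SW480 it was at 161, 159 and 156 CPM against 100, 96.9 and 98.8 CPM, and the difference between the lines passed the test (edgeR adjusted p = 2.54e-13). Of 30 ATF4 and amino acid synthesis genes tested in HCT116, 20 were higher and 3 lower (median 0.45), and of 31 in SW480, 11 and 8 (median 0.03, negative without siTIP60-2 replicate 3 or siTIP60-11 replicate 2). DDIT3, the stress factor CHOP, was higher with siTIP60-2 by 1.29 and 0.52, from levels below control with both siRNAs.

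Of 14 ERK feedback genes, 6 were higher and none lower with siTIP60-2 in both lines, beside 13.9% and 11.3% of all genes. The list's medians were 0.39 and 0.10. Within the lines, 11 were higher and none lower in HCT116 (23.5% and 22.5% of all genes), and 6 higher and 4 lower in SW480 (23.4% and 21.9%). FOSL1, a Fos family factor, was at 180, 173 and 196 CPM with siTIP60-2 and 47.1, 49.1 and 53.6 CPM with siTIP60-11 in HCT116, on both sides of a control mean of 103 CPM. In SW480 it was at 291, 303 and 276 CPM against 122, 119 and 138 CPM, around 199 CPM. EGR1 and the phosphatase DUSP6 were also higher, by 1.23 and 0.59 and by 1.21 and 0.62. Of 16 WNT target genes tested in both lines, 5 were higher and 1 lower, beside 13.9% and 11.3% of all genes. This list's medians were 0.36 in HCT116 and −0.03 in SW480 (positive on TPM values). CCND1, cyclin D1, was higher by 0.96 and 1.19. Within the lines, 10 of 16 WNT targets were higher and 1 lower in HCT116, and 5 of 19 higher and 8 lower in SW480, beside the same within-line shares of all genes. CCND1 lay above control with siTIP60-2 (156% and 135%) and below it with siTIP60-11 (80.5% and 59.3%).

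In the remaining lists members recurred in both directions, with 13.9% of all genes higher and 11.3% lower in both lines. Of 16 endoplasmic reticulum chaperones and XBP1 targets, 2 were higher and 3 lower, XBP1 higher by 0.93 and 0.77. Of 19 YAP and TEAD targets, 1 was higher and 3 lower, with TGFB2, a ligand of transforming growth factor signalling, at −3.23 in HCT116 and −1.33 in SW480. TGFB2 was low throughout, at 0.883, 0.234 and 0.612 CPM with siTIP60-2 and 5.17, 6.17 and 5.05 CPM with siTIP60-11 in HCT116, and its SW480 call was lost on TPM values. Although lower with siTIP60-2, TGFB2 held ATGGAAT 2 times in its 3' UTR and no AAGAGTT. Of 25 hypoxia and glycolysis genes, 3 were higher and 4 lower; of 17 epithelial genes, 1 and 1; of 14 mesenchymal genes, 2 and 3; and of 13 stratified keratin and hemidesmosome genes, 1 and 3. SPINT1, an epithelial serine protease inhibitor, was lower with siTIP60-2 by −0.97 and −1.01.

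The siRNA difference itself differed between the lines for 3478 of 17411 genes (20.0%), 1721 more positive in HCT116 and 1757 more positive in SW480. On TPM values the share more positive in HCT116 was 38.2% in place of 49.5%. Among the recurring genes 703 of 3505 (20.1%) were called for it. All 422 genes called in opposite directions were too, which nearly follows from how those genes were picked. HAS3, a hyaluronan synthase, was at 373, 349 and 362 CPM with siTIP60-2 and 97.4, 100 and 90.6 CPM with siTIP60-11 in HCT116, where the control mean was 98.5 CPM. In SW480 it was at 4.14, 4.05 and 4.19 CPM against 8.29, 9.65 and 9.68 CPM, over a control mean of 2.7 CPM. The groups did not overlap in either line, with siTIP60-2 the high siRNA in HCT116 and siTIP60-11 in SW480 (log2 differences 1.91 and −1.16, edgeR adjusted p of the difference between the lines = 3.59e-17).

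SPARC, a matrix glycoprotein, and CEMIP, which takes part in hyaluronan breakdown, had the same pattern, with log2 differences of 1.99 and −0.78 and of 0.70 and −1.70. DHRS2, a short-chain dehydrogenase, was the reverse: it was at 150, 153 and 125 CPM with siTIP60-2 and 28.3, 29.2 and 34.2 CPM with siTIP60-11 in SW480, but at 12.4, 15.1 and 13.7 CPM and 18.6, 19.7 and 20.1 CPM in HCT116. The HCT116 calls of CEMIP and DHRS2 were lost on TPM values. HPCAL4, a neuronal calcium sensor, and FLNC, a filamin, differed in SW480 (2.20 and 1.99) and were not called in HCT116, where FLNC was called with no filter on low counts and with only the libraries compared. GAB2, a docking protein of receptor signalling, was at 3.24, 3.27 and 3.97 CPM with siTIP60-2 and 13, 16.9 and 15.3 CPM with siTIP60-11 in HCT116. In SW480 its groups overlapped, at 4.72, 7.77 and 5.51 CPM and 6.17, 7.61 and 7.14 CPM.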

How the data were processed

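RNA was measured from cell cultures of 10 groups of 3 libraries, read from 1 end over 60 bases after a strand-specific library kit and 100 ng of total RNA, per the labels' protocols. The submitters' processing notes name hg38 and the tools RSEM 1.3.3, STAR 2.7.3a and Trimmomatic 0.33; annotation release and strand setting are not given in the sources used. For each gene the authors deposited the expected count, an estimate that divides reads shared by several genes and need not be whole (9.13% to 13.1% of genes per library were not), and, per the file headers, its TPM, a value corrected for transcript length. Of 60617 listed genes, 58444 matched GENCODE release 29, which gave gene types, coordinates and transcripts.

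Expected counts were rounded. Each line was fitted with all 15 libraries by edgeR 4.0.16 (R 4.3.3; TMM, its expression filter, robust quasi-likelihood test of siTIP60-2 minus siTIP60-11, Benjamini-Hochberg adjustment over all genes tested, calls at 0.05). The lines were compared by the interaction in a fit of 30 libraries. SE is the log2 difference over the square root of F. CPM uses TMM scaling, and TPM levels were not compared between genes. The edgeR fits and the word regression were tested on simulated data. Words were counted in the longest annotated 3' UTR of at least 50 bases; words in fewer than 50 genes were not ranked, a minimum set when the ranking was written. Genes were named by rule: KAT5, the 15 protein-coding genes per direction with a mean count of at least 50 in each line and the largest smaller-of-2 difference among those called in both lines, 5 per direction for the difference between lines, up to 3 per list and 4 per word. Other list members named with values were chosen after their values were seen. The 24 lists, the members and the rules were chosen with earlier results of these data known. The alternatives were DESeq2 1.42.0, upper-quartile scaling, other filters, limma 3.58.1 on log2(TPM + 1), fewer libraries, a replicate block and other word definitions. A few named genes and 1 sequence are not reported here.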

Additional observations from a re-analysis of the deposited data

Results flagged for a closer look

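The difference between siTIP60-2 and siTIP60-11 was not the same in HCT116 and SW480 for 3478 genes by the interaction test, and 40 of the named genes were among them. Values are the log2 difference in HCT116 minus that in SW480, so a positive value means a more positive difference in HCT116. Positive values were found for HAS3 (3.08), SPARC (2.79), CEMIP (2.42), ABHD12B (1.93) and SYTL2 (1.92), which were named for this difference. The cholesterol genes HMGCS1 (1.18) and INSIG1 (0.98) were also positive, as were TNFRSF19 (1.15), PPP1R14C (0.83), DDIT3 (0.78), FOSL1 (0.69), EGR1 (0.66), SLC7A11 (0.65), FAM3C (0.63), DUSP6 (0.60), BOP1 (0.55), BIRC2 (0.49), MBTD1 (0.38), G3BP1 (0.37) and SWAP70 (0.33). Negative values were found for DHRS2 (−2.70), HPCAL4 (−2.25), CHST2 (−1.89), GAB2 (−1.87) and FLNC (−1.83), named for it, and for TGFB2 (−1.88), GPD2 (−1.20), H2BC21 (−0.86), GINS1 (−0.82), ELF3 (−0.69), NIBAN1 (−0.66), CDC26 (−0.66), TYMS (−0.64), CCNA2 (−0.61), NCL (−0.60), H1-2 (−0.57), SOD2 (−0.50), SEL1L (−0.44), FKBP9 (−0.43) and CCND1 (−0.22). Of the genes in both directions, HAS3, SPARC, CEMIP, ABHD12B, SYTL2 and DHRS2 were called in opposite directions in the lines, which no longer held for CEMIP and DHRS2 on TPM values, where their HCT116 calls were lost. The causes of these differences were not tested, and medium, depth and cell line cannot be told apart here.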

How the results depend on the processing

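With limma on log2(TPM + 1), 2201 genes recurred in both lines in place of 3505 (1960 of them shared), 134 in place of 229 at 2-fold or more in each line, and KAT5 in HCT116 was at −0.05 and no longer called; the cause was not tested. The limma counts were 5114 in HCT116, 5221 in SW480 and 2515 between the lines. Over the other alternatives, leaving out 1 library at a time included, the counts were 6373 to 8429 in HCT116, 5878 to 7086 in SW480, 3065 to 3987 recurring and 2947 to 4351 between the lines, and none of the 780 alternative values of the 30 genes named for both lines lost its call or direction. The word coefficients kept their sign throughout. For AAGAGTT they were −0.220 in HCT116 and −0.136 in SW480 with no adjustment for UTR length and GC, −0.289 and −0.242 with the UTR of the longest coding transcript, −0.177 and −0.141 for the leading 6-base word and −0.366 and −0.328 for the leading 8-base word; for ATGGAAT they were 0.161 and 0.199, 0.194 and 0.200, 0.136 and 0.121, and 0.261 and 0.271, and 0.190 and 0.188 with a mean count of at least 100. Leaving out 1 library at a time gave −0.279 to −0.264 for AAGAGTT and 0.172 to 0.179 for ATGGAAT in HCT116, −0.220 to −0.215 and 0.170 to 0.180 in SW480. Of the list medians, 18 of 42 changed sign under an alternative, none of them above 0.16 in size. The replicate numbers did not pair the libraries (correlation of same-numbered libraries 0.025 to 0.067 in HCT116 and −0.12 to 0.054 in SW480); with the replicate block 7620 genes were called in HCT116, 6735 in SW480, 3568 in both and 3545 between the lines. SW480 libraries were the shallower, so low genes there are less certain.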
